A study of Mus musculus with 4 samples.

Results

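The change in N6-methyladenosine (m6A) enrichment between Mettl3-deficient and control macrophages was described from every row of the authors' deposited table of differential peaks. It holds 10355 peaks, against 36507 peaks in the WT peak list and 38697 in the cKO list. All but 14 of the differential peaks are assigned to a gene, and they fall on 7399 genes. Both groups were bone-marrow-derived macrophages from C57BL/6 mice, grown with the macrophage growth factor M-CSF for 7 days and then kept for 24 h with MC38, a mouse colon carcinoma cell line. WT cells carried loxP-flanked Mettl3 alleles without Cre (Mettl3fl/fl). The cKO cells carried the same alleles with LysM-cre, which expresses Cre from the lysozyme M locus and so deletes in myeloid cells, where part of the alleles can stay intact. Each genotype had 1 m6A antibody pulldown library (IP) and 1 input library. The number of animals behind a library, and how MC38 cells were removed, were not stated in the labels.

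m6A is the most common internal mark of messenger RNA. A complex of Mettl3, the catalytic subunit, with Mettl14, Wtap and other partners places it on adenosines within a short sequence context that often reads GGACT, mostly near stop codons and in long internal exons. Reader proteins of the Ythdf and Ythdc families bind the mark, and many marked transcripts are degraded faster. The marks of macrophage transcripts are known to bear on their inflammatory and interferon responses.

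Each peak has a log2 ratio of IP over input in the WT and in the cKO, and the difference used throughout is cKO minus WT on this log2 scale. A value of 0 means no enrichment by the antibody, and a value of 1 means that IP was 2-fold above input. The region named for a peak is the authors' label, and a peak labelled 3' UTR or 5' UTR can reach far into coding sequence. Where peaks are sorted by the stop codon and the 3' end, their place on the transcript was used instead. With 1 library pair a genotype there is no replicate spread, no test across samples was possible, and each value compares these libraries only. The table lists only peaks with p below 0.05, so its counts describe the listed peaks and not all m6A peaks of the cells. The files give no read counts, and the depth is unknown.

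Mettl3 itself has no listed differential peak. The WT list holds 2 peaks on it, a 3' UTR peak at 1.37 and a 5' UTR peak at 1.33 (log2 IP over input). The cKO list holds 4, at 1.45 and 0.86 in the 3' UTR, 1.80 in an exon and 1.30 in an intron. The files give input FPKM (fragment counts scaled to transcript length and library size) only for genes with a listed differential peak, so the level of Mettl3 RNA, and with it the labels, could not be checked. Among the genes with such values, the macrophage markers Cd68 and Lyz2 were high in both inputs. Cd68 had an FPKM of 695 in WT and 634 in cKO, and Lyz2 3393 and 1980. Lyz2 encodes lysozyme M, whose locus carries the Cre in the cKO, so it is not a neutral marker between the genotypes. The 33 macrophage identity genes with a value had a median FPKM of 34.5 in WT and 28.8 in cKO. Summed FPKM of the 21 mesenchymal and matrix markers with a value was 778 in WT and 1179 in cKO, and none of them was listed at 0 in both. Timp1 alone, with the input values given below, made up a large part of this sum. The 4 epithelial and colon carcinoma markers with a value summed to 9.59 and 12.6, and both T or B lymphocyte markers with a value were near 0, summing to 1.10 and 0.64. The 5 neutrophil markers with a value summed to 249 and 194, and the 2 dendritic cell markers to 10.6 and 13.1. The 2 erythroid, mast cell and megakaryocyte markers summed to 158 and 114. The part of these other cells in the m6A differences was not tested.

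To show what the listed peaks hold, 12 stretches of mouse transcript are printed here, each around the GGACT of a peak described below. They were read from GENCODE M21 transcripts (GRCm38, the same assembly as mm10), 5' to 3' on the transcript strand with T for U, and the capitals mark GGACT. The first 8 lie in peaks that were lower in the cKO, and the last 4 in peaks that were higher.
Ifnar2, chr16:91404327-91404347: ggatctatGGACTgaagatgg
Jak1, chr4:101152994-101153014: accttttaGGACTgaagtttt
Socs3, chr11:117967255-117967275: tgacaagcGGACTctcccctc
Traf6, lower peak, chr2:101694267-101694287: tatgatctGGACTgcccaaca
Tnfaip3, chr10:19002404-19002424: gcgtgctaGGACTggcagcag
Cd274, chr19:29382498-29382518: acagaacaGGACTcactgggt
Wtap, chr17:12972734-12972754: aggagaggGGACTtaggagta
Jund, chr8:70700099-70700119: gcatgcgcGGACTagctgcgg
Traf6, higher peak, chr2:101700869-101700889: ctcaaaaaGGACTaagctagt
Far1, chr7:113570692-113570712: gtgggaggGGACTctgacctc
Kdelr2, chr5:143421649-143421669: tggatagaGGACTcagctcct
Pdxdc1, chr16:13834103-13834123: tgagacagGGACTgactgtgg
The same letters thus occur in peaks of both directions. A match is a description of the sequence and does not show that the base is methylated.

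On the deposited scale, the listed peaks lay on both sides in near equal numbers. Of the 10355 listed peaks, 5292 were lower in the cKO (51.1%) and 5063 were higher (48.9%). What counts as lower or higher near 0, and with it this balance, rests on the authors' scaling of IP to input, which is not given in the sources used here. Over all of them the median difference was -0.18 and the mean difference 0.07. By the authors' deposited table, peaks with adjusted p below 0.05 numbered 5519, or 53.3% of those listed, with 2997 lower (28.9% of the listed peaks) and 2522 higher (24.4%). Among the 1668 of these with an absolute difference of at least 1, 718 were lower (6.93% of the listed peaks) and 950 were higher (9.17%). The balance therefore turned with the size of the difference asked for, from more lower peaks to more higher ones.

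Lower peaks started from strong enrichment and ended at a level near that of the others. Their median log2 IP over input was 2.13 in WT and 1.31 in cKO, with a median difference of -0.61. The higher peaks had a median of 0.73 in WT and 1.61 in cKO, with a median difference of 0.79. WT values were below 0 in 783 of the higher peaks, and cKO values were below 0 in 656 of the lower peaks. In all but 1 peak of each direction the genotype with the larger value lay above 0, so the listing itself fixes part of this contrast. Over all listed peaks the SD was 1.34 in WT and 1.17 in cKO, and the interquartile range 1.45 and 1.10, so that the cKO values were closer to each other.

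**Figure D1:**
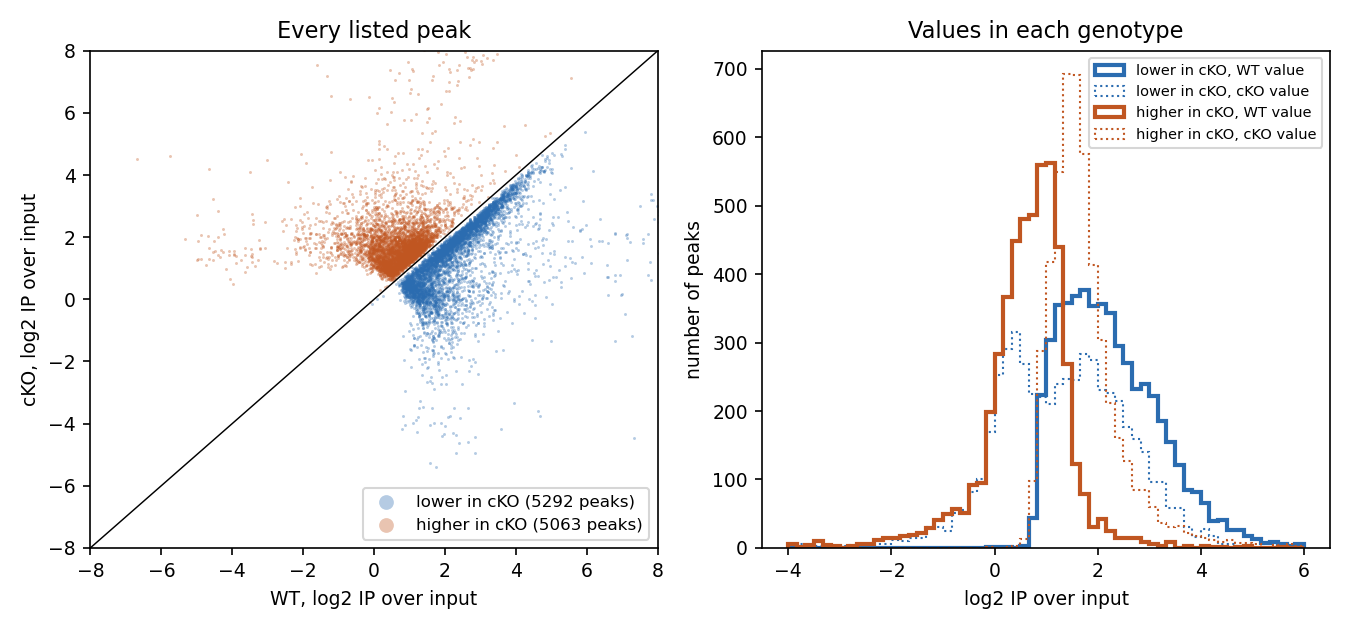
Left, log2 IP over input of every listed peak in WT (x axis) and cKO (y axis), with the line of equal values; 37 peaks lie outside the axes. Right, number of peaks by log2 IP over input, where solid lines are WT values, dotted lines cKO values, blue the lower and orange the higher peaks; 180 peaks have a value outside the axis. The lower peaks form a narrow band under the line that runs to high enrichment, while the higher peaks cluster at a cKO value between 1 and 2.

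Whether a listed peak was found in one map or both was set beside its direction. Of the listed peaks, 7180 overlapped a peak of both the WT and the cKO list by at least 1 bp, and 53.9% of these were lower. Those found in the WT list alone numbered 1376, at a median of 1.55 in WT and 0.07 in cKO, and those in the cKO list alone 1690, at 0.08 in WT and 1.64 in cKO. In these last groups the direction follows nearly by definition, with 98.2% and 0.95% lower. Most of the listed differences were thus between peaks that both genotypes had.

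Input level moved with direction and size. Peaks on genes with a mean FPKM of 1 to 5 in the inputs numbered 3640, of which 56.9% were lower, with a median absolute difference of 0.95. At an FPKM of 20 to 100 there were 1314 peaks, 37.1% lower, and the median absolute difference was 0.37. At 100 or more, 22.6% of 398 peaks were lower, the median absolute difference was 0.29, and 90.5% had, by the authors' deposited table, an adjusted p below 0.05. Below an FPKM of 1 the median absolute difference was 2.00 and 36.3% had such an adjusted p. An absolute difference of at least 1 was found in 1238 peaks below an FPKM of 1, in 1713 at 1 to 5 and in 15 at 100 or more. Large differences thus lay mostly on weakly expressed genes, and the part of read depth in them was not tested.

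Seen by gene, directions were mixed. All listed peaks were lower in 3208 genes (43.4%), all were higher in 3110 (42.0%), and 1081 genes (14.6%) had peaks in both directions. A single listed peak was all that 5199 genes had. Of the 2200 genes with at least 2 listed peaks, 594 had all lower (27.0%), 525 all higher (23.9%) and 1081 both (49.1%, exact 95% binomial interval 47.0 to 51.2, counting error only). The share with both directions was 42.0% of 1623 genes with 2 peaks, 66.6% of 446 with 3 and 78.1% of 105 with 4. Counting peaks whose adjusted p was below 0.05, by the authors' deposited table, 371 genes had at least 1 peak in each direction, or 8.12% of 4568 genes and 46.1% of the 804 with at least 2 such peaks.

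The 3 classes of genes differed in length and starting level. Genes with all peaks lower had a median log2 IP over input of 2.20 in WT and 1.41 in cKO, and those with all peaks higher 0.77 and 1.60. Genes with both directions lay between, at 1.19 and 1.47. The median annotated transcript was 2321.5 bases long in the all-higher genes, 3015 in the all-lower genes and 4166 in the genes with both. Their 3' UTRs had medians of 885, 1237 and 1852 bases. Genes with both directions thus had the longest transcripts, but by definition they have at least 2 listed peaks. Transcript length was not compared between the classes at equal numbers of peaks.

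Within genes that had both directions, the peaks came closer together in the cKO. The gap between the strongest and the weakest listed peak of such a gene had a median of 1.59 in WT and 1.17 in cKO on the log2 scale, and it was narrower in the cKO in 683 of 1081 genes (63.2%). In genes with all peaks lower the gap went the other way, from 0.90 to 1.27, and in genes with all peaks higher it went from 0.64 to 0.54. Over all 2200 genes with at least 2 listed peaks the gap had a median of 1.10 in WT and 0.98 in cKO and was narrower in the cKO in 52.2%. The choice of genes by opposite changes bears on their gap, so the value is a description.

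The genes with most listed peaks show how differently long transcripts behaved. Ahnak, a giant scaffold protein under the plasma membrane, had 4 exonic peaks that were each slightly lower, by -0.20 to -0.30, at WT values of 1.58 to 2.12. Its 1 peak in the distal 3' UTR was higher, at 1.08 in WT and 1.85 in cKO, with a difference of 0.77 (adjusted p of 0.0079, from the authors' deposited table). Ahnak2, its relative, had 6 peaks, all lower, and they included some of the strongest of any named gene, with 4.98 in WT and 4.11 in cKO in an exon. Every peak of Ahnak2 still stood at 1.85 or more in the cKO.

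Styx, a catalytically inactive phosphatase-like protein, was the opposite case. Its 6 listed peaks all lay in the 3' UTR and all were higher, with WT values of -0.66 to 0.86 and cKO values of 1.46 to 3.87. Its input FPKM was low, at 0.86 in WT and 0.64 in cKO.

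Syne2, Dst, Akap9, Cmas and Sfi1, the other genes of this group, each had peaks of both directions. Syne2 is a giant nuclear envelope protein: 5 of its 7 exonic peaks were lower, yet the one that passed 0.05 by adjusted p of the authors' deposited table was higher, at -0.48 in WT and 1.86 in cKO. Dst, a cytoskeletal linker, had 4 lower and 3 higher peaks along its transcript. By the authors' deposited table, only lower ones had an adjusted p below 0.05 (0.015 and 0.039), and the higher ones had 0.054, 0.094 and 0.14. Akap9, a scaffold of the centrosome and Golgi, had an intron peak and an exonic peak that were lower, at 2.94 and -1.34 and at 2.50 and 2.17, and 3 exonic or 3' UTR peaks that were higher, from 0.05 to 0.23 in WT and from 1.23 to 1.60 in cKO. The input FPKM of Syne2, Dst and Akap9 was low, between 1.25 and 3.19 in each library. Sfi1, a centrosome protein, had 2 higher and 4 lower peaks, none of which differed by more than 1.04.

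The share of lower peaks differed with position along the transcript. Of the listed peaks, 9402 could be placed on the exons of their listed transcript, 8782 of them on a transcript with a stop codon, and 52.2% of these were lower. Peaks that held the stop codon and not the 3' end were lower in 1016 of 1273 cases (79.8%, exact 95% interval 77.5 to 82.0), with a median difference of -0.38 and a median of 2.14 in WT and 1.79 in cKO. Peaks that reached within 50 bases of the 3' end and did not hold the stop codon were lower in 649 of 2301 (28.2%, 26.4 to 30.1). Their median difference was 0.45, from 1.14 in WT to 1.65 in cKO. These intervals cover counting error over peaks only, and peaks of 1 gene share their RNA. A long peak is also more likely to hold the stop codon, and lower peaks were longer (median exonic length 675 against 275 bases). Placed by their middle, peaks 0 to 500 bases past the stop codon were lower in 51.4% of 2329, near the 52.2% of all. The part of peak length in the share at the stop codon was not tested.

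The other positions lay between these. Peaks wholly before the stop codon were lower in 60.1% of 2347, and those holding both the stop codon and the 3' end in 60.7% of 1316. Peaks in the 3' UTR that held neither were lower in 45.8% of 1550. When the 3' UTR was split in 5 equal stretches by where the middle of the peak fell, the share of lower peaks was 52.3%, 49.0%, 47.9%, 35.9% and 22.4% from the stop codon to the end. The share of lower peaks thus declined along the 3' UTR.

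Enrichment also differed between these positions, so they were compared within quintiles of the mean log2 IP over input. From the lowest to the highest quintile, 60.0%, 57.5%, 55.3%, 88.3% and 95.6% of the peaks at the stop codon were lower. At the 3' end the shares were 29.3%, 13.4%, 12.9%, 35.3% and 83.7%. Peaks at the stop codon were more often lower in each quintile, and the most enriched peaks were mostly lower at both positions.

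**Figure D2:**
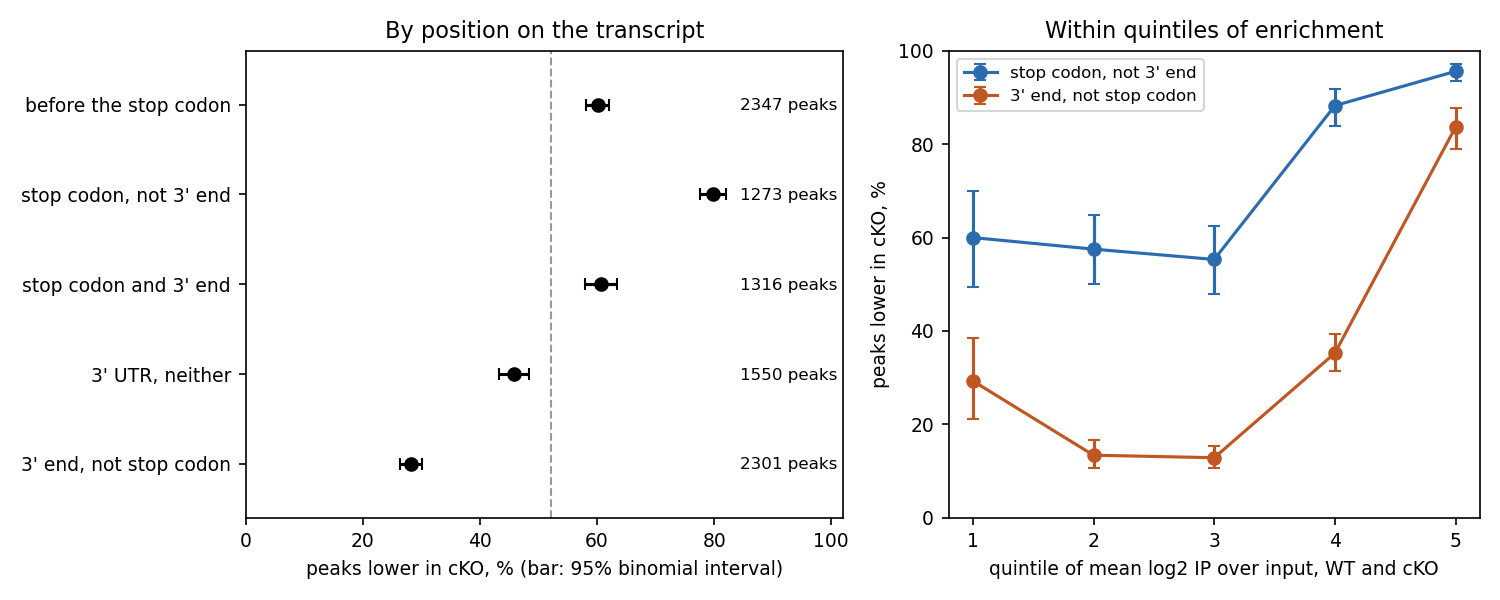
Left, share of listed peaks that were lower in cKO (x axis, percent) by position on the transcript, with exact 95% binomial intervals, the number of peaks and the share of all placed peaks as a dashed line. Right, the same share (y axis, percent) by quintile of mean log2 IP over input, for peaks at the stop codon (blue) and at the 3' end (orange). The stop codon stands above the 3' end in all 5 quintiles, by 95.6% against 83.7% in the highest.

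The 1081 genes with both directions allow the same comparison inside 1 transcript pool. For each, the lower and the higher peak of smallest adjusted p were taken. The lower peak lay upstream of the higher one in 744 genes (68.8%, 66.0 to 71.6). Where both peaks lay in the 3' UTR this held for 433 of 489 genes (88.5%, 85.4 to 91.2), and for 185 of 197 (93.9%) when both had, by the authors' deposited table, an adjusted p below 0.05. Where both lay in coding exons it held for only 15 of 47 genes (31.9%, 19.1 to 47.1). The order from a lower to a higher peak was thus seen in pairs that the authors label 3' UTR, a label that peaks across the stop codon also carry. Of the 311 such pairs placed on 1 transcript, the lower peak held the stop codon in 226 and the higher peak in 5. Their median exonic lengths were 1250 and 275 bases. A peak across the stop codon lies upstream of most others with this label, so label and peak length fix part of this order.

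Pairs across regions had weaker order. Of 244 genes with 1 exonic and 1 3' UTR peak, the exonic one was the lower in 143 (58.6%), and of 132 with a 5' UTR and a 3' UTR peak, the 5' UTR one was the lower in 77 (58.3%, 49.4 to 66.8). Of 71 with an intron and a 3' UTR peak, the intron one was the lower in 27 (38.0%).

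In 647 genes both peaks could be placed on 1 transcript, which had a stop codon in 638. In these 638 the middle of the lower peak had a median of -71.75 bases from the stop codon, just before it, and that of the higher peak lay 1174.5 bases past it. The lower peak held the stop codon in 295 genes and the higher peak in 43. The higher peak held the 3' end in 333 genes and the lower peak in 49. The lower peak was also the longer one, at a median of 875 exonic bases against 275.

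**Figure D3:**
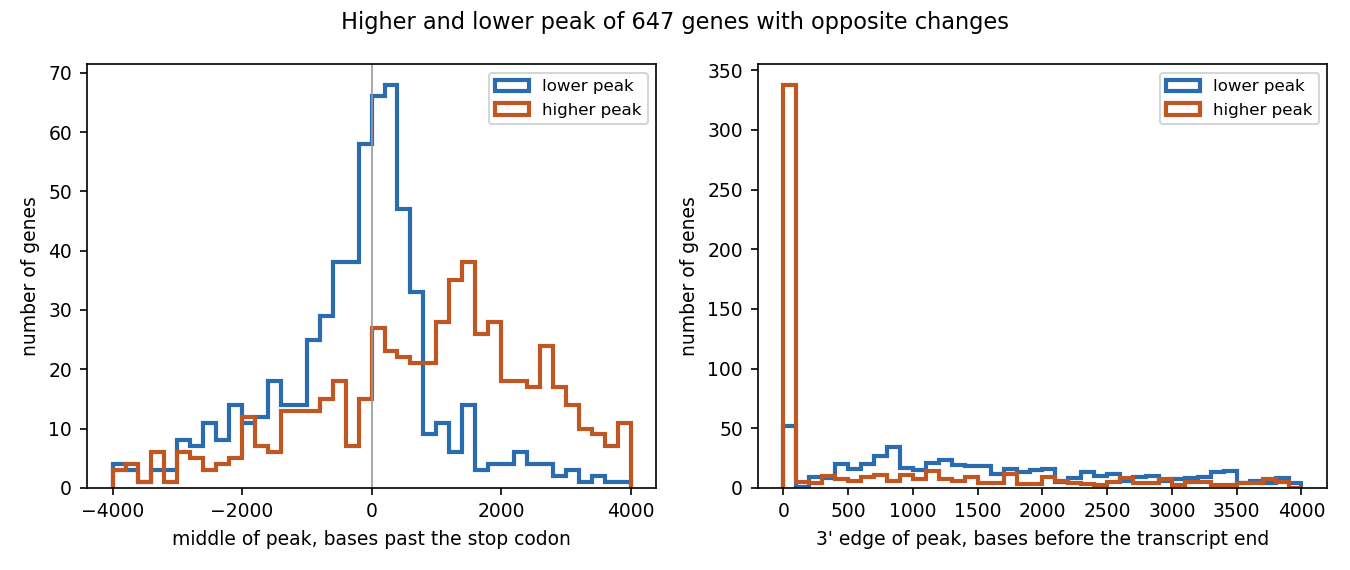
Number of genes (y axis) by the place of their lower (blue) and higher (orange) peak, for 647 genes with opposite changes. Left, bases from the stop codon to the middle of the peak, for the 638 with a stop codon; right, bases from the 3' edge of the peak to the transcript end. Genes with a peak beyond 4000 bases (90 on the left, 149 on the right) are not drawn in full. The lower peaks gather around the stop codon and 333 higher peaks stand at the 3' end.

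In WT the peak that was lower in the cKO was the stronger of the pair in 991 of 1081 genes (91.7%). In the cKO it was still the stronger in 374 (34.6%), and in 617 genes (57.1%) the order of the pair turned. The median of the lower peak was 1.96 in WT and 1.21 in cKO, and that of the higher peak 0.66 and 1.65. Since the pair was chosen by direction, these levels are a description.

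The 12 genes with the largest opposite changes, among those with a mean FPKM in input of at least 5, are drawn peak by peak. Mga, a Max-binding transcription factor, had 4 lower peaks in order along its coding exons and 3' UTR, with WT values of 1.21, 1.38, 2.89 and 3.64 and cKO values of -0.07, 0.66, 2.42 and 3.26. The fifth, at the distal 3' UTR (chr2:119968967-119969116), stood at -1.26 in WT and 3.08 in cKO. All 5 had, by the authors' deposited table, an adjusted p below 0.05.

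Ptp4a1, a membrane-linked tyrosine phosphatase, followed the same order. Its 5' UTR peaks were lower, from 2.11 to 0.23 and from 1.13 to 0.38, a proximal 3' UTR peak was lower from 1.21 to 0.78, and the distal 3' UTR peak (chr1:30941477-30942126) was higher, from -0.65 in WT to 2.11 in cKO (adjusted p of 6.1e-09, from the authors' deposited table). Aida, an axin-interacting protein, had 3 lower peaks from the 5' UTR to the 3' UTR and a last 3' UTR peak that was higher, from 0.32 to 2.09. Pdxdc1 went from 1.71 in WT to 0.50 in cKO in an exon and from -0.44 to 1.23 in the 3' UTR. In Pcmt1, which repairs damaged aspartate residues in proteins, the 5' UTR peak went from 1.82 to -1.03 and the 3' UTR peak from 0.74 to 2.09. Rnft1, a RING-finger membrane protein, went from 2.60 to 0.98 in a proximal and from -0.40 to 1.94 in a distal 3' UTR peak.

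Others of the 12 did not keep this order. In Eif5b, a translation initiation factor, a 3' UTR peak that was higher (0.71 to 1.91) stood between a slightly lower 5' UTR peak (1.97 to 1.73) and a lower last peak (3.07 to 0.07). In Tbl1xr1, a corepressor subunit, the higher peak (0.49 to 1.47) lay upstream of the lower one (2.08 to -0.03), both in the 3' UTR. Cmas, which activates sialic acid, had 5 higher peaks around 1 lower one, which went from 2.52 to -0.76. Septin11, a cytoskeletal GTPase, likewise had a lower 3' UTR peak (2.29 to -0.24) between 2 higher ones. The 4 peaks of Mbtps1, a Golgi protease that activates sterol-regulatory factors, all lay in introns. One of them had the largest difference of any peak of the 12, from -4.99 to 1.25, and another went from 1.96 to -0.98.

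Rpl7a, a protein of the large ribosomal subunit, held the strongest WT peak of the 12. An exonic peak (chr2:26912567-26912966) went from -2.02 in WT to 2.26 in cKO, and the 3' UTR peak that begins next to it went from 5.45 to 2.80. The authors' deposited table gives them adjusted p values of 2.7e-13 and 6.1e-17. Ribosomal protein genes have many near-identical processed copies, so the reads assigned to Rpl7a are uncertain.

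**Figure D4:**
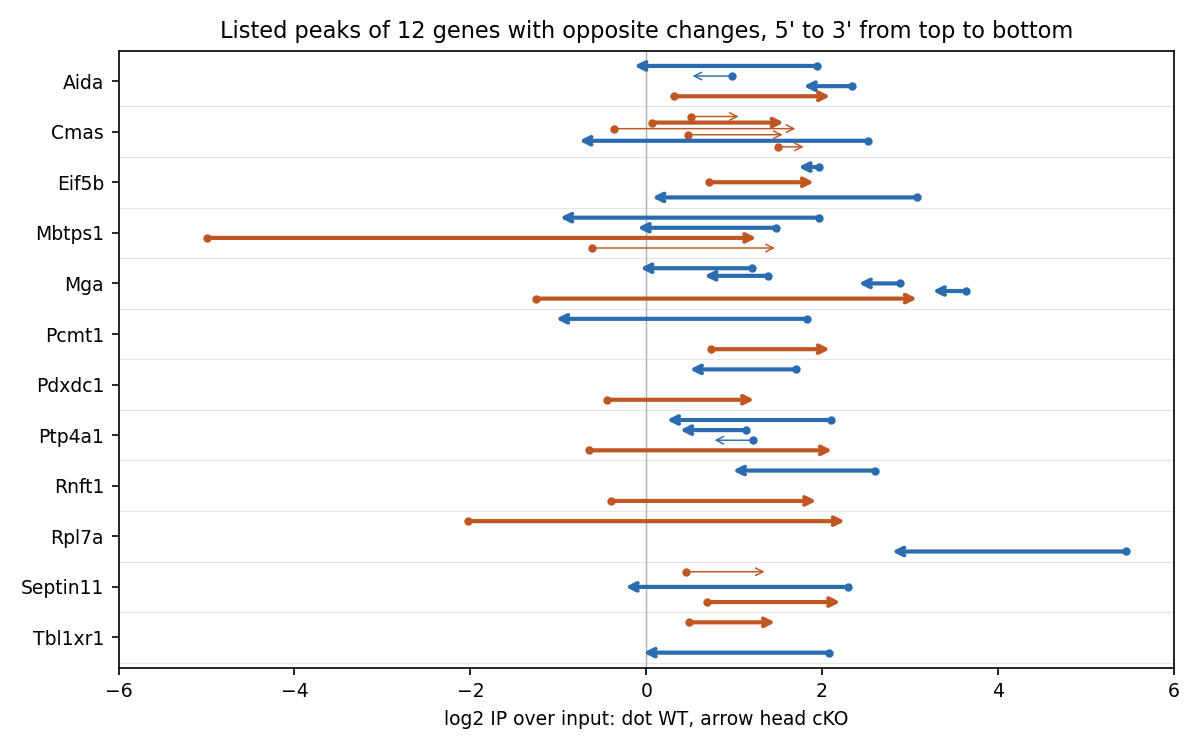
Every listed peak of the 12 genes with the largest opposite changes, in transcript order from top to bottom within a gene. The x axis is log2 IP over input, the dot is WT and the arrow head cKO, blue arrows are lower and orange higher, and thick arrows have an authors' adjusted p below 0.05. In Aida, Mga, Ptp4a1 and Rnft1 the last arrow points right and those above it left, and in Rpl7a the order is the other way.

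Among genes with at least 3 listed peaks all lower, and a mean FPKM in input of at least 5, Usp9x had the lowest median. Usp9x is a deubiquitinase encoded on the X chromosome. Its 4 peaks lay within 4 kb of 3' UTR, with WT values of 1.47, 2.33, 1.90 and 2.59 and cKO values of 0.21, -1.44, -2.51 and -0.37. Each had, by the authors' deposited table, an adjusted p of at most 4.3e-06, and input FPKM was 8.70 in WT and 8.59 in cKO. All 4 peaks thus stood at 0.21 or lower in the cKO while the input values lay close together.

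The other 9 genes of this kind had median differences nearer to 0. Jmjd1c, a Jumonji-domain chromatin protein, had 2 peaks at the 5' UTR that went from 2.50 to 0.05 and from 1.96 to 0.12, and 2 exonic peaks that were lower by 0.39 and 0.57 on the log2 scale. In Ankib1, a RING-type ubiquitin ligase, the peak across the stop codon stood at 3.40 in WT and 2.87 in cKO while an upstream exonic peak went from 1.39 to -1.69. Ube4b, a ubiquitin chain elongation factor, had peaks in 4 regions, of which the intron one went from 1.44 to -0.31. Oxr1 (oxidation resistance), Cdc42bpb (a kinase of the actin cytoskeleton), Clip1 (a microtubule plus-end protein), Rab11fip1 (recycling endosomes), Fnbp1 (membrane curvature) and Cyhr1 each had 3 lower peaks. Their cKO values ran from -0.75 to 2.29.

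Among genes with at least 3 listed peaks all higher, and a mean FPKM in input of at least 5, the 10 with the highest median differences were taken. An intron peak stood below 0 in WT and above it in cKO in Dpf2, Il11ra1, Man2b1, Fubp1, Zc3h14 and Ccnt2, and a 3' UTR peak did so in Sugt1 and Txnl1. Dpf2, a subunit of BAF chromatin remodelling complexes, had an exonic peak at -1.80 in WT and 2.40 in cKO, an intron peak at -1.06 and 1.83, and a 3' UTR peak at 0.74 and 1.36. Il11ra1, the receptor of interleukin 11, had an intron peak at -0.48 and 1.61 (adjusted p of 1.3e-06, from the authors' deposited table) and 2 further higher peaks. Far1, which makes fatty alcohols for ether lipids, had 5 peaks, 4 of them in the 3' UTR with WT values of 0.20 to 0.58 and cKO values of 0.75 to 1.85. Kdelr2, which returns resident proteins to the endoplasmic reticulum, had 3 neighbouring 3' UTR peaks at 0.38 to 0.61 in WT and 1.05 to 1.47 in cKO. Man2b1 (lysosomal mannosidase), Fubp1, Zc3h14, Ccnt2, Sugt1 and Txnl1 completed the group. Except for Man2b1 and Kdelr2, genes of this group had an input FPKM of at most 15.5.

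GGACT was more frequent in lower than in higher peaks, and lower peaks were also longer. The motif was searched on the transcript strand in the exonic part of the 9402 placed peaks. It occurred in 56.9% of 4903 lower peaks and 26.9% of 4499 higher peaks, but the median exonic length was 675 bases in the lower and 275 in the higher peaks. Per kilobase the lower peaks held 1.32 and the higher peaks 1.03. Windows of the same length elsewhere on the same transcripts, where there was room for them, held GGACT in 39.4% of cases for the lower peaks, which themselves held it in 43.9%. For the higher peaks these windows held it in 27.3%, and the peaks in 24.6%. For GGACT, lower peaks thus stood above their own transcripts and higher peaks slightly below. For the shorter GGAC, lower peaks hardly differed from their windows, at 73.1% and 72.3%. The higher peaks held GGAC in 56.4% and their windows in 64.6%.

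Within classes of length, lower peaks held GGACT more often in each class up to 2000 bases. At an exonic length of 200 to 500 bases GGACT occurred in 32.0% of 1133 lower and 25.3% of 2586 higher peaks. At 500 to 1000 bases the shares were 65.4% of 1010 and 45.9% of 695, and at 1000 to 2000 bases 85.2% of 1226 and 73.6% of 148. At 2000 bases or more the density was 1.26 per kilobase in lower and 1.29 in the 15 higher peaks. Of the 647 opposite pairs on 1 transcript, the lower peak had the higher density in 321, the higher peak in 143, and 183 were equal. GC content had a median of 50.5% in lower and 46.0% in higher peaks and moved with direction. The part of base composition in the motif counts was not tested.

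Gene functions were read through 30 gene lists and through the KEGG and GO terms that the authors' deposited table gives with each peak. The lists are described by counts beside those of all listed peaks, of which 51.1% were lower at a median difference of -0.18. Of the lists with at least 6 listed peaks, 10 had a median below 0. Of these 10, JAK-STAT, chromatin and transcription cofactor, and immediate-early, Klf and AP-1 genes had an order-statistic interval wholly below 0. The JAK-STAT (-0.35 to -0.23) and chromatin (-0.43 to -0.24) intervals also lay below the median of all listed peaks. That of the immediate-early, Klf and AP-1 list, -0.390 to -0.177, included this median of -0.182. For the other lists with a median below 0 the interval included 0, as for MAPK-ERK genes (-0.48 to 0.36) and interferon-stimulated genes (-0.35 to 0.32). The same held for ubiquitin ligases and deubiquitinases (-0.40 to 0.24) and for the m6A writer complex (-0.73 to 1.22).

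**Figure D5:**
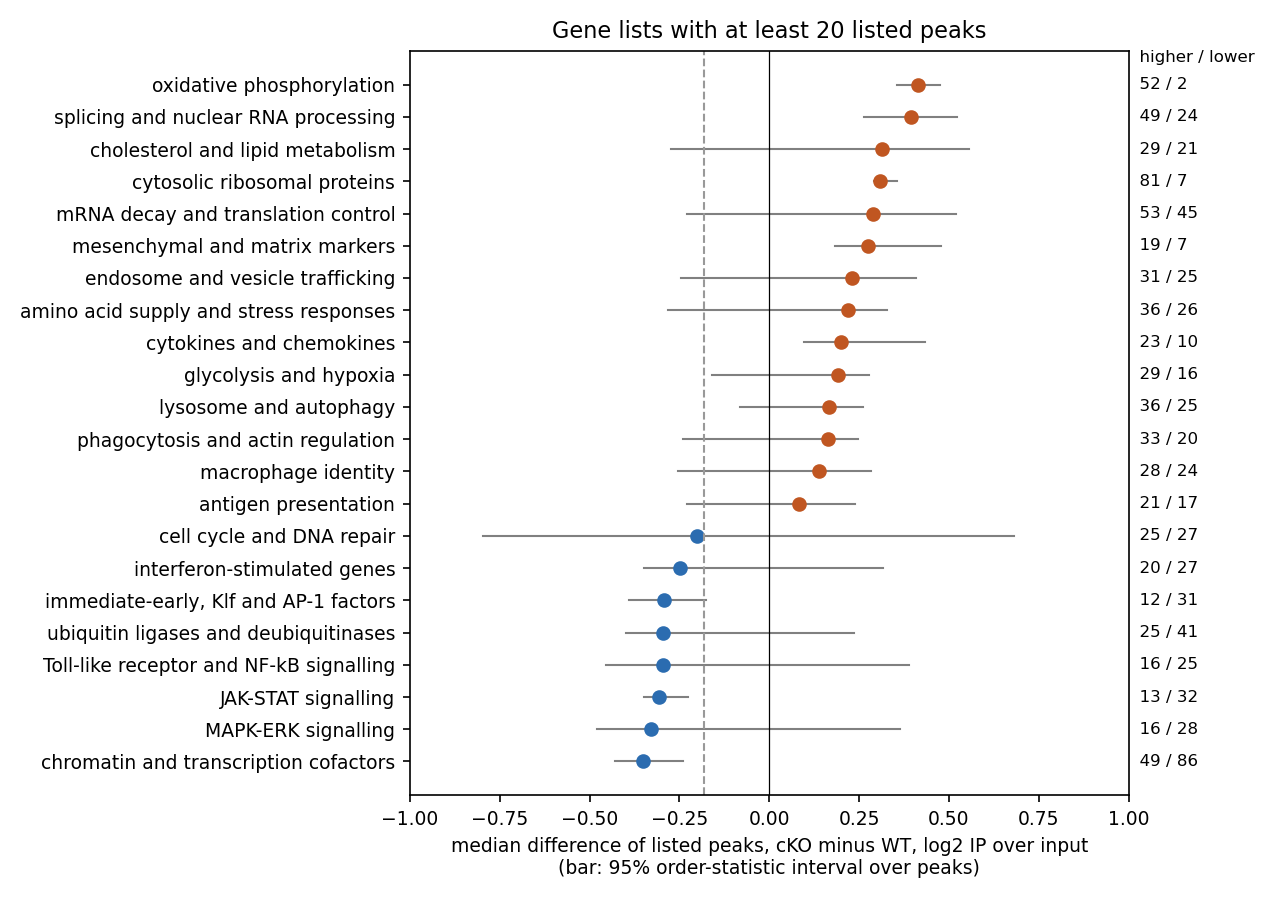
Median difference of the listed peaks of each gene list with at least 20 of them (x axis, cKO minus WT, log2 IP over input) with its exact 95% order-statistic interval over peaks, and at the right the number of higher and lower peaks. The dashed line is the median of all listed peaks. Of the lists drawn, oxidative phosphorylation stands highest, with 52 higher and 2 lower peaks, and chromatin and transcription cofactors lowest, with 49 higher and 86 lower.

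Among the m6A machinery, the writer complex had mostly lower peaks. Of its 8 listed peaks on 7 genes, 6 were lower, and 5 of these had, by the authors' deposited table, an adjusted p below 0.05. Wtap, which brings the complex to nuclear speckles, had 2 lower peaks, from 2.79 to 2.07 and from 2.79 to 2.06. Zc3h13, which anchors the complex in the nucleus, went from 2.62 to 2.27, and the RNA-binding adaptors Rbm15 and Rbm15b from 3.36 to 2.93 and from 3.79 to 3.37. All of these stood at 2.06 or more in the cKO. Erasers and readers were split, with 8 higher and 8 lower, and with 4 and 5 at an authors' adjusted p below 0.05. Eif3a had the smallest adjusted p of this list in the authors' deposited table (2.8e-23) and was lower, from 2.03 to 1.62. The demethylase Alkbh5 was lower in its 5' UTR, from 1.06 to 0.48, and Igf2bp2, a stabilising reader, from 0.87 to 0.19, while Fmr1 was higher, from -0.26 to 2.21.

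JAK-STAT genes, which relay cytokine and interferon receptors to transcription, had 32 lower and 13 higher peaks, with a median difference of -0.31. Ifnar2, a subunit of the type I interferon receptor, had a strong peak across the stop codon, labelled 3' UTR. It stood at 4.07 in WT and 3.47 in cKO (adjusted p of 1.6e-25, from the authors' deposited table). Its GGACT stretch printed above lies in that peak, with 7 further copies. Jak1, the receptor-bound kinase, went from 2.81 to 2.33 and Socs3, the feedback inhibitor, from 2.44 to 2.16. In Csf2rb, the common beta chain of cytokine receptors, 2 peaks were lower, from 1.11 to 0.66 and from 0.79 to 0.46, and a distal 3' UTR peak was slightly higher, by 0.12. Of the 13 genes of this list with at least 2 peaks, 8 had both directions, beside 49.1% of all genes with at least 2 listed peaks.

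Toll-like receptor and NF-kB genes, the sensors and relays of microbial products, had 25 lower and 16 higher peaks. The order-statistic interval of their median, -0.45 to 0.39, includes 0. Traf6, the ubiquitin ligase downstream of the receptors, had a long lower peak across the stop codon, 3.90 in WT and 3.43 in cKO. Its 2 distal 3' UTR peaks were higher, from 0.76 to 1.19 and from 0.44 to 1.51. The stretches of both kinds of peak are printed above. Traf1, an adaptor, went from 3.97 to 3.50, Tnfaip3, which edits ubiquitin to stop the signal, from 3.13 to 2.75, and Tlr13, a sensor of bacterial ribosomal RNA, from 2.49 to 2.03. These peaks were among the strongest of the list in WT.

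MAPK-ERK genes had 28 lower and 16 higher peaks. The ERK inhibitors Spred2 and Dusp4 were lower, Spred2 from 2.21 to 1.56 and Dusp4 from 2.96 to 2.68 in the 3' UTR, as was the kinase Map3k3, from 3.07 to 2.69. Map2k1, which phosphorylates ERK, was higher, from 0.72 to 1.28 in its 3' UTR.

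Immediate-early, Klf and AP-1 transcription factors, which respond fast to stimuli, had 31 lower and 12 higher peaks with a median difference of -0.29. Atf3 went from 3.41 in WT to 3.15 in cKO, Bhlhe40 from 3.34 to 2.96, Jund from 3.41 to 2.85 and Nfil3 from 3.09 to 2.50. Each had 1 listed peak, labelled 3' UTR by the authors. Its middle lay before the stop codon in Nfil3, Jund and Bhlhe40 (-628, -285.5 and -92.5 bases) and 451.5 bases past it in Atf3. Of the 42 placed peaks of this list 25 held the stop codon, and 69.0% held GGACT. Over all 8782 peaks placed on a transcript with a stop codon, 1273 held the stop codon without and 1316 with the 3' end, and GGACT occurred in 42.5% of all 9402 placed peaks.

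Chromatin and transcription cofactor genes had 86 lower and 49 higher peaks, with a median difference of -0.35. In Kdm4b, a histone demethylase, the 3' UTR peak went from 4.00 to 3.34, and in Kdm5c from 2.39 to 1.72. Arid1a, a subunit of BAF complexes, had 3 lower peaks, from 3.29 to 2.87, from 1.88 to -0.24 and from 2.66 to 2.06. Dot1l, a histone methyltransferase, had a 3' UTR peak that was higher from 0.68 to 1.81. Of 41 genes with at least 2 peaks 26 had both directions, beside the same 49.1% of all such genes, on transcripts with a median length of 6697 bases.

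Ubiquitin ligases and deubiquitinases, Usp9x and its 4 lower peaks included, had 41 lower and 25 higher peaks. Mdm2, the ligase of p53, went from 2.82 to 2.36. Usp47 had 3 lower peaks, the strongest from 4.93 to 4.49. Rnf213, a giant ligase with antimicrobial roles, had 4 lower peaks, by 0.26 to 0.54 on the log2 scale. Zfp zinc-finger genes, taken up after their values were seen, had 170 lower and 75 higher peaks on 178 genes, with a median difference of -0.49.

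Interferon-stimulated genes had 27 lower and 20 higher peaks, beside a median log2 input difference of -0.42 on the log2(FPKM + 1) scale, against -0.02 in all genes. Irgm1 went from 3.75 to 3.35 in m6A while its input FPKM was 18.6 in WT and 9.04 in cKO. Gbp6 went from 3.44 to 2.91, with an input FPKM of 25.1 and 14.5, and Parp14 from 2.97 to 2.54. Trim25, which activates RIG-I, had equal input, at 50.5 and 51.7, and a peak across the stop codon that was lower (3.00 to 2.53) with a distal 3' UTR peak that was higher by 0.32. Gbp and Irgm genes have close paralogs, so reads may be shared among them.

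Cytokine and chemokine genes stood on the other side, with 23 higher and 10 lower peaks and a median difference of 0.20. Ccl3 went from 1.28 to 1.47 and Ccl6 from 1.15 to 1.31, both small differences at high input. Vegfa, the angiogenic factor, was lower, from 2.68 to 2.38. Tgfb1 had a 5' UTR peak that was lower, from 1.63 to 1.27, and 2 neighbouring peaks at the end of the 5' UTR and in an exon that were higher, from -0.97 to 3.14 and from -0.71 to 3.17.

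Genes of antigen presentation and macrophage identity were divided. Antigen presentation had 21 higher and 17 lower peaks. Cd274, which encodes the T-cell checkpoint ligand PD-L1, had a lower peak across its stop codon (1.73 to 1.44) and a higher peak in its distal 3' UTR (0.78 to 1.12), and both had an adjusted p of at most 6.8e-10, by the authors' deposited table. B2m went from 0.57 to 0.68 and H2-D1 from 0.97 to 1.14. H2-Q6 went from 4.07 to 3.41, but class I genes are near-identical and their reads uncertain. Macrophage identity genes had 28 higher and 24 lower peaks: Cd14, the endotoxin co-receptor, went from 2.11 to 1.65 and Mpeg1, a pore-forming protein of phagosomes, from 2.26 to 2.04, while Apoe went from 1.05 to 1.31.

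Endocytic and degradative lists leaned to higher peaks, with intervals of their medians that include 0. Phagocytosis and actin genes had 33 higher and 20 lower peaks. Rhob, an endosomal GTPase, held the strongest named peak among them, at 4.41 in WT and 3.90 in cKO, and Syk, the kinase of Fc receptor signalling, went from 2.79 to 2.46, while Capg had 3 higher peaks. Lysosome and autophagy genes had 36 higher and 25 lower. Ctsb, cathepsin B, was lower (1.68 to 1.44) and Ctsa higher (1.07 to 1.41). Trafficking genes had 31 higher and 25 lower, among them Rab7, higher from 0.93 to 1.34, and Arf6, lower from 3.30 to 2.89.

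Metabolic lists differed more. Oxidative phosphorylation genes, the subunits of the respiratory chain and ATP synthase, had 52 higher and 2 lower peaks, with a median difference of 0.41. Atp5g2, a subunit of the ATP synthase ring, went from 1.33 to 2.12, Cycs (cytochrome c) from 1.23 to 1.78, Ndufa1 of complex I from 1.12 to 1.65 and Cox4i1 of complex IV from 1.01 to 1.42. The median input difference of this list was -0.01. Cytosolic ribosomal protein genes had 81 higher and 7 lower peaks, with a median difference of 0.31 and a median input difference of 0.32. Rps28 went from 0.93 to 1.57, Rpl28 from 1.34 to 1.85 and Rps16 from 1.20 to 1.65.

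These genes have short transcripts, with medians of 763 and 715 bases, and most of their placed peaks held both the stop codon and the 3' end. Such peaks were higher in 28 of 28 cases in the oxidative phosphorylation list and in 45 of 47 in the ribosomal list. In other genes with transcripts under 1000 bases, peaks of this kind were higher in 134 of 187, with 28.3% lower. Over other genes of any length they were lower in 64.2% of 1241. Peaks of short transcripts outside both lists thus leaned to the same side, less completely. The share of lower peaks also fell with input level over the listed peaks, to 22.6% at a mean FPKM of 100 or more. The part of input level in the lean of both lists was not tested. As said of Rpl7a, ribosomal protein genes have near-identical processed copies, so their reads are uncertain.

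Glycolysis and hypoxia genes had 29 higher and 16 lower peaks. Gapdh, a glycolytic enzyme, went from 1.72 to 3.76, but has many processed copies in the genome, and its input FPKM was only 64.6 in WT and 51.3 in cKO, so this value is uncertain. Slc2a1, the glucose carrier, was lower in its 3' UTR (2.33 to 2.03) and slightly higher in an upstream exon (0.53 to 0.73). Cholesterol and lipid genes had 29 higher and 21 lower. Abca1, which exports cholesterol, had a lower long peak (2.61 to 2.25) and a higher distal 3' UTR peak (0.90 to 1.29), the retinoid receptor Rxra went from 3.18 to 2.67, and the 4 peaks of the scavenger and lipoprotein receptor Lrp1 were all higher, by 0.41 to 0.63.

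Amino acid and stress genes had 36 higher and 26 lower peaks. Hspa5, the BiP chaperone of the endoplasmic reticulum, went from 3.34 to 3.05 while its input FPKM was 84.0 in WT and 175 in cKO. Pdia4, a disulfide isomerase, went from 2.55 to 2.07 with an input of 57.5 and 93.3. The arginine carrier Slc7a2 had 2 lower peaks upstream of 2 higher peaks in the 3' UTR, where 1.15 went to 0.70 and 0.56 to 0.79. Its input FPKM was 310 and 192.

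Splicing genes had 49 higher and 24 lower peaks, with a median difference of 0.40, although 3 of their 4 named genes had lower peaks only: Cpsf7, a polyadenylation factor, went from 2.11 to 1.35, Prpf38b from 2.46 to 2.16 and Son, a speckle protein, from 2.56 to 2.20. In Hnrnpf a proximal 3' UTR peak was lower (1.27 to 0.94) and a distal one higher (0.89 to 1.34). Genes of mRNA decay and translation control had 53 higher and 45 lower peaks. Their named members were lower: Btg1, an antiproliferative deadenylation cofactor, from 1.94 to 1.52, Larp1 from 3.27 to 2.76, Tnrc6a, the scaffold of miRNA silencing, from 3.81 to 3.22, and Zfp36l2, an AU-rich element binder, from 2.97 to 2.64. Named members were taken by the smallest adjusted p, which favours strong peaks.

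Cell cycle and DNA repair genes had 25 higher and 27 lower peaks. Atm, the kinase of the DNA break response, went from 3.43 to 2.48 and E2f3 from 3.22 to 2.51, while the cyclin-dependent kinase inhibitors Cdkn1a (1.34 to 1.80) and Cdkn1b (0.69 to 1.37) were higher in the 3' UTR. Nuclear noncoding RNAs had 8 higher peaks and 1 lower one. That one, on Neat1, the scaffold of paraspeckles, hardly differed, at 3.31 and 3.25, while its input FPKM was 163 in WT and 64.1 in cKO. Malat1 had 3 peaks higher by 0.06 to 0.23.

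Markers of other cells were sparse among the listed peaks except for the matrix list. It had 19 higher and 7 lower peaks, with a median difference of 0.28 beside a median input difference of 0.57. Sparc, a matrix glycoprotein, went from 0.96 to 1.44 while its input FPKM went from 32.4 to 66.7, and Timp1 from 1.05 to 1.31 with 357 and 534. An exonic peak of Loxl2, a collagen cross-linking enzyme, had values of -6.68 in WT and 4.52 in cKO, while its 3' UTR peak went from 0.95 to 1.57. Read counts are not given, so how few reads lie behind the exonic values could not be checked, and they are uncertain. Neutrophil markers had 5 higher peaks and no lower one, dendritic cell markers 2 higher, lymphocyte markers 2 higher, and the erythroid, mast cell and megakaryocyte list 1 of each. Epithelial and colon carcinoma markers had 4 higher and 2 lower peaks on 4 genes.

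The deposited annotation terms were read the same way. Of 122 KEGG terms with at least 60 listed peaks, the share of lower peaks was smallest for oxidative phosphorylation (9.52% of 84), Parkinson disease (11.0% of 82), which shares most of its respiratory genes, and ribosome (12.9% of 116). It was largest for breast cancer (62.8% of 94), pluripotency of stem cells (62.4% of 93), NF-kappa B signalling (62.3% of 69) and Jak-STAT signalling (61.1% of 108). The Toll-like receptor term had 46.6% of 73 lower, with a median difference of 0.17, and the MAPK term 52.0% of 198, both smaller shares than in the lists of Toll-like receptor and NF-kB genes (25 of 41) and of MAPK-ERK genes (28 of 44). Of 159 GO terms with at least 150 listed peaks, translation (22.97% of 209) and mitochondrial inner membrane (29.0% of 207) had the smallest shares, and ubiquitin protein ligase activity (64.8% of 210) and DNA-binding transcription repressor activity (63.0% of 165) the largest. Terms share genes, and the range among them was wider on the side of higher peaks.

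The difference in input between the genotypes, unlike the input level described above, was little related to the change in enrichment across genes. Over the 6079 genes with a mean FPKM in input of at least 1, the input difference and the median m6A difference of the gene had a Pearson's r of -0.12 and a Spearman's rho of -0.15, as a description across genes, which share the same 2 input libraries with the m6A ratio. The median log2 input difference was 0.01 in all-lower genes, -0.05 in all-higher genes and -0.03 in genes with both. Of the 26 genes with an input at least 2-fold lower in the cKO, 18 of 34 peaks were lower, and of the 25 with an input at least 2-fold higher, 17 of 30 were lower.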

How the data were processed

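MeRIP-seq (antibody pulldown of fragmented poly(A) RNA, with dUTP-marked strands per the labels' protocols) was made in 4 libraries, 1 for each group, so no p-value was computed here. The submitters' processing notes name edgeR, StringTie, ChIPseeker, HOMER, HISAT2, fastp and build mm10. Roles, versions and the scaling of IP to input are not given. Per the file headers, the deposited tables give log2 IP over input for each peak, its cKO minus WT difference, and the authors' p-values and adjusted p-values. The FPKM of the input libraries is as the authors deposited it, for the genes of listed peaks only. No library is a replicate of another.

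With Python 3.11.15, pandas 2.3.3 and scipy 1.17.1, peaks were counted by sign, grouped by gene ID, and overlapped with the WT and cKO lists (1 bp). They were placed on the listed GENCODE M21 transcript (at least 50 exonic bases; within 50 bases of the end counts as holding the 3' end). The counting code was tested on simulated data with known gene classes. Binomial and order-statistic intervals are at 95%. Input differences use log2(FPKM + 1) and a mean FPKM of at least 1. The FPKM of a gene is compared between genotypes. Between genes, FPKM serves to sort peaks by input level, to set a minimum input and to describe marker genes.

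Named genes were Mettl3, the 8 genes with most peaks, the 12 opposite genes with the largest smaller change, the 10 lowest and 10 highest genes with at least 3 peaks in 1 direction, and up to 4 genes per list by smallest authors' adjusted p. Symbols of predicted genes and mitochondrial genes were left out. The members and the 30 lists were chosen with earlier results of these data known. Alternatives tried were stricter peak sets, centring, input filters, merged overlaps, another pair rule, other overlap, motif, pseudocount and end settings.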

Additional observations from a re-analysis of the deposited data

How the results depend on the processing

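The share of lower peaks, 51.1%, was 54.3% at an adjusted p below 0.05, 43.0% with an absolute difference of at least 1 as well, 46.4% on genes whose mean FPKM in input was at least 5, and 50.0% after centring on the median of -0.18, which gives it by construction. Genes with both directions numbered 371 at an adjusted p below 0.05 and 558 at an absolute difference of at least 0.5, as fewer peaks enter. With both peaks at an adjusted p below 0.05, the lower peak was upstream in 76.0% of genes, and in 93.9% of 3' UTR pairs. At an overlap of at least 50%, 58.9% of the listed peaks were in both lists. GGACT shares of higher and lower peaks were 25.3% and 32.0% at 200 to 500 exonic bases, chosen after seeing the data; GGAC occurred in 58.7% and 81.2%; GGACT at an adjusted p below 0.05 occurred in 63.5% of lower peaks. Also chosen after seeing the data, peaks at the stop codon were lower in 84.5% at an adjusted p below 0.05 and in 68.8% outside the highest quintile of enrichment, where those at the 3' end were lower in 20.3%. The other 25 alternatives of these results were classed as unchanged, which for counts of genes does not mean within sampling error. With enrichment above 0 in both genotypes, 835 genes had both directions against 1081. At an adjusted p below 0.05 as well, the count was 303 against 371. Of the list medians, 88 stayed within their interval and 16 moved beyond it; none whose interval excludes 0 turned its sign, but at an adjusted p below 0.05 mRNA decay and translation control came to -0.24 and cell cycle and DNA repair to 0.80, the latter was 0.24 as a median over genes, and m6A erasers and readers went from -0.06 to 0.13 after centring. No paired analysis was possible because each group has 1 library. With 1 library pair a genotype and unknown depth, differences between animals and between genotypes cannot be told apart.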
